A study of Solanum lycopersicum with 12 samples.

Results

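Leucine-rich repeat receptor kinases were measured in tomato (Solanum lycopersicum) stems loaded with a small hanging weight. The set holds every gene of either deposited table whose protein name or InterPro entry names contain both "leucine-rich repeat" and "protein kinase", which gave 80 of 6120 genes. The plants were of the cultivar Ailsa Craig, which all groups share. A wooden clamp of 3 g hung for 48 h from stems 4.5 to 5 cm tall, and control plants carried none. Stems were collected at 6 h and at 10 days, which with 3 replicates each of control and weighted stems made 12 libraries in 4 groups. The design text counts the 6 h from the start of the treatment and the 10 days from its end, whereas the sample labels call the first time 6 hours post treatment. The labels do not say how many plants went into each library. Values are FPKM, which scale fragments by transcript length and by sequencing depth, so levels can be compared between genes.

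Receptors of this family sit in the plasma membrane. The leucine-rich repeats outside the cell bind a ligand, often a secreted peptide or a steroid, or pair with a co-receptor, and the kinase domain inside passes the signal on by phosphorylation. In stems the family is known for brassinosteroid-driven elongation, for the ERECTA pathway of internode growth and stomatal patterning, and for the peptide signals that maintain the vascular cambium and the shoot meristem.

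The annotation supported the label for most of the set. A kinase domain entry stood beside the repeats in 71 genes, while 9 genes qualified through their protein name alone and carried no kinase domain entry. Of the 71, 44 also had the entry for the kinase active site and 27 did not. An N-terminal leucine-rich repeat entry was present in 57 genes and a malectin-type entry, named after a carbohydrate-binding protein, in 7. Protein names come from the deposited tables and are database matches, so a name such as ERECTA gives the nearest named protein and is not proof of orthology.

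Of the 80 genes, 70 stood in the 6 h table only, 8 in the 10 day table only and 2 in both. Mean levels over the 12 libraries ran from 0.192 to 949.8 FPKM with a median of 8.08 FPKM. The mean was under 1 FPKM in 7 genes, from 1 to 10 in 37, from 10 to 100 in 34 and at 100 or more in 2. The 5 highest were Solyc06g063370.3 (949.8 FPKM), PXC1 (Solyc09g008860.4, 104.5), STRUBBELIG-RECEPTOR FAMILY 6 (Solyc12g055720.2, 79.3), a protein named after the Arabidopsis locus At1g35710 (Solyc01g011040.3, 78.4) and FEI2 (Solyc08g074760.3, 64.9).

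Replicate libraries correlated at 0.953 to 0.998 across the genes of each table (Pearson, log2 values), and without counts in the tables the depth is not known. Marker genes of stem cell types were read from the 6 h table, whose genes the authors had chosen for differing at 6 h. Every tested marker there differed at adjusted p under 0.05 (limma), as did 99.3% of all tested genes, 48.0% higher and 51.4% lower. The counts of the marker lists were not tested against those shares. At 6 h, 27 of 28 genes of chlorophyll a-b binding proteins were lower in weighted stems and 1 was higher, and their summed level was 13852.9 to 19341.4 FPKM in control and 6187.5 to 6913.9 FPKM in weighted stems. Of the tested markers of dividing cells 11 of 12 were lower (1999.8 to 2305.1 against 1573.8 to 1852.9 FPKM summed), of lignifying cells 6 of 7 (65.4 to 96.6 against 40.8 to 53.2 FPKM), and of trichomes 8 of 8 (255.9 to 269.0 against 100.3 to 150.1 FPKM). Of the epidermis and cuticle markers 17 of 21 were higher (1390.4 to 1520.9 against 2262.0 to 2960.1 FPKM), and of the phloem markers 5 of 7 (245.8 to 314.4 against 288.3 to 313.0 FPKM). No marker gene of these lists was at 0 in every library of a 6 h group. In whole stems, fewer cells of a type and less RNA per cell cannot be told apart, and the part of these shifts in the receptor values was not tested.

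At 6 h the receptor kinases moved in both directions. Of 72 genes in the 6 h table, 67 passed the filter on low values (1 FPKM or more in 3 or more of the 6 libraries). Of these, 29 were higher and 37 lower in weighted stems (limma adjusted p under 0.05), and the remaining gene, Solyc03g082450.3, had adjusted p = 0.0518. These counts are close to the table's own background, since the authors had chosen its genes for differing at this time: 99.3% of 5024 tested genes were called, 48.0% higher and 51.4% lower. The 2 groups did not overlap in 95.5% of the tested receptor kinases and in 95.5% of all tested genes. A gap between the groups, given for single genes below, is therefore the rule among these values. The median log2 fold change was -0.31 for the receptor kinases and -0.26 for all tested genes. A change of at least 1 on the log2 scale was found in 2 that rose and 6 that fell, 11.9% of 67, against 14.4% of all tested genes (7.13% higher and 7.23% lower).

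**Figure D1:**
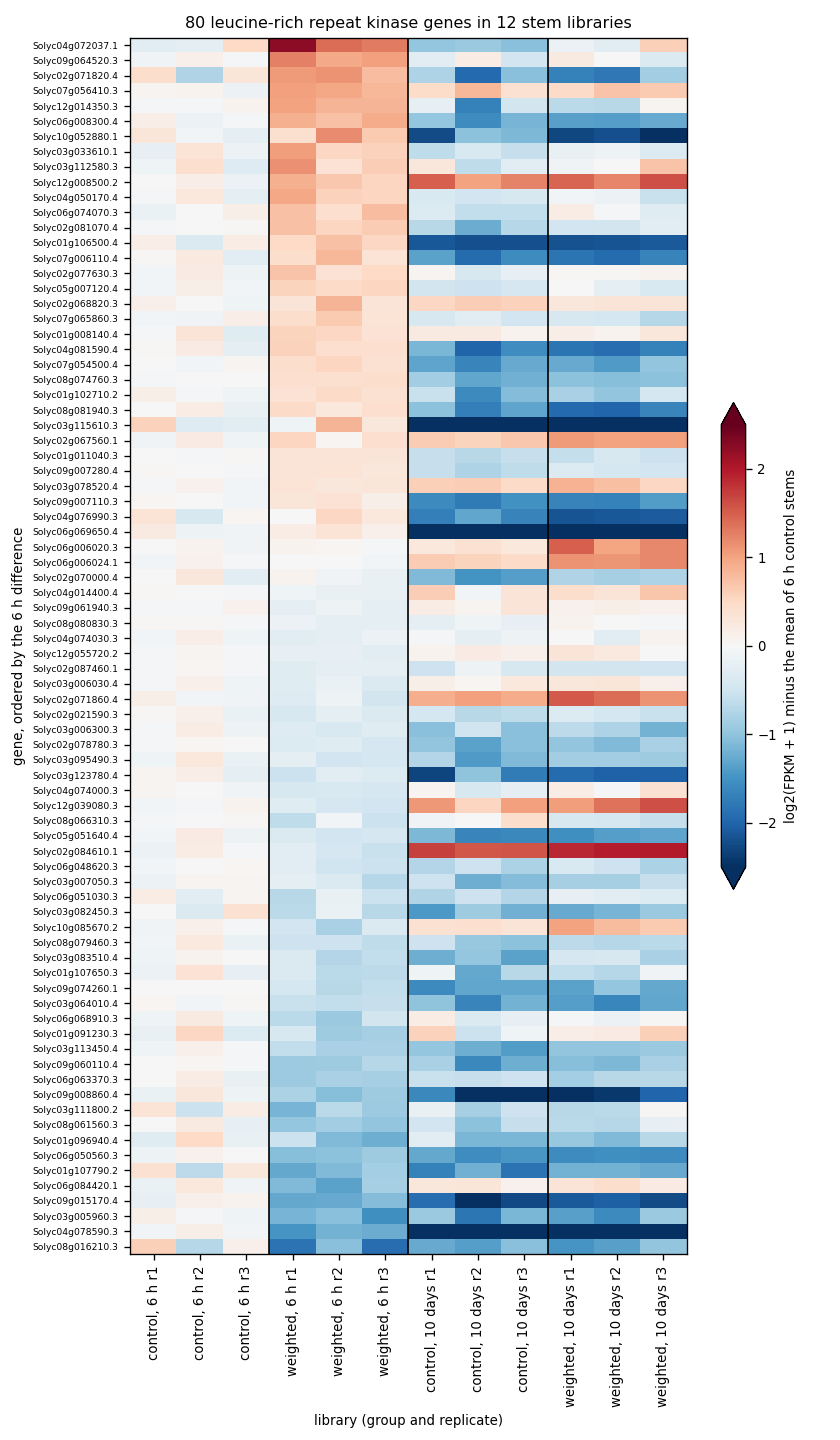
Heat map of 80 genes (rows) in 12 libraries (columns, by group and replicate). Colour gives log2(FPKM + 1) minus the mean of the 6 h control stems, limited to 2.5 in either direction. Rows are ordered by the 6 h difference, so the red upper and blue lower ends of the second block follow from that order, while in the last 2 blocks 56 rows lie below the 6 h controls in control and weighted stems alike.

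**Figure D2:**
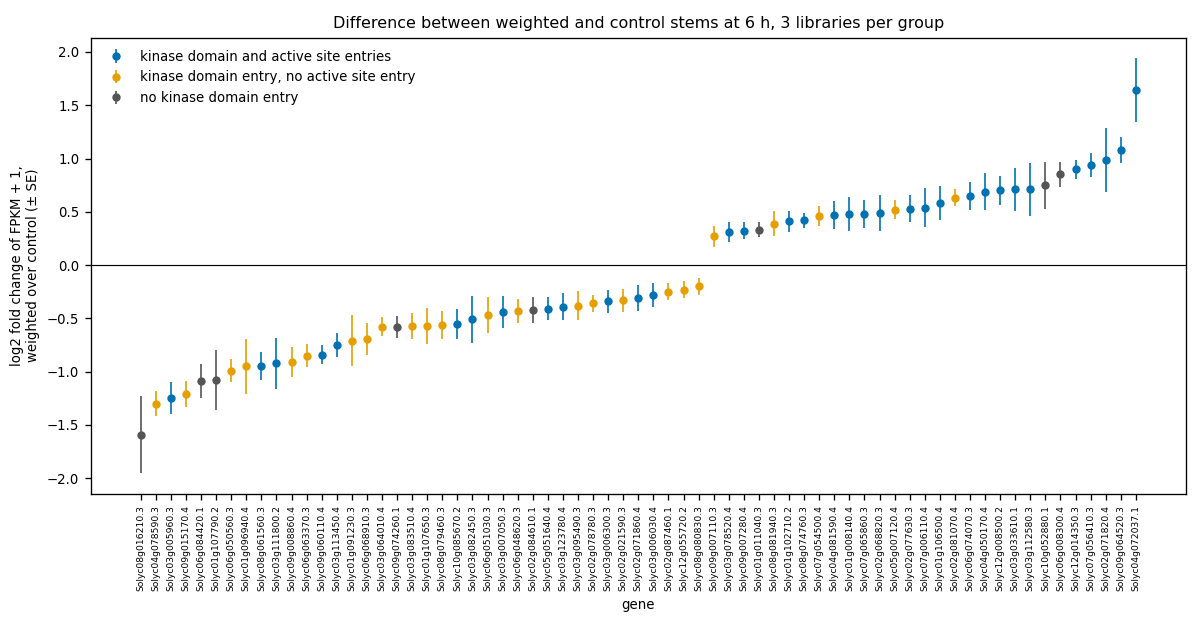
Log2 fold change of FPKM + 1 in weighted over control stems at 6 h (points, ± SE, 3 libraries per group) for the 67 tested genes, ordered by size. Colours give the kinase entries of each gene. The values run from -1.59 (Solyc08g016210.3) to 1.64 (Solyc04g072037.1). Genes with a kinase domain entry but no active site entry lie mostly on the negative side (20 of 25). Of all 67 genes 55.2% were called lower, and the difference between the subsets was not tested.

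Among receptors named for a hormone or peptide ligand, the gene named after the systemin receptor fell most. Solyc09g015170.4 is named Systemin receptor SR160, a name given in tomato to the protein also known as the brassinosteroid receptor BRI1. The gene has a kinase domain entry but no active site entry, and its name is a database match and not proof of orthology. It read 18.87, 24.06 and 23.51 FPKM in control stems and 8.47, 8.68 and 9.84 FPKM in weighted stems. The groups were well separated, with every weighted library far below every control (limma log2 fold change -1.21, SE 0.12, adjusted p = 0.000417).

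The ERECTA gene (Solyc08g061560.3), whose Arabidopsis counterpart promotes stem elongation, read 6.74, 8.02 and 5.69 FPKM in control and 2.95, 3.22 and 2.91 FPKM in weighted stems. All weighted libraries were lower than all controls (log2 fold change -0.95, SE 0.13, adjusted p = 0.00109). Its relative ERL1 (Solyc03g007050.3) was near the filter, with 1.31, 1.67 and 1.69 FPKM in control and 1.15, 0.98 and 0.56 FPKM in weighted stems. It was also lower in each weighted library (-0.44, SE 0.15, adjusted p = 0.0221). The call for ERL1 ended without control replicate 2 or 3 (adjusted p = 0.0603 and 0.0654) and likewise without weighted replicate 3 (0.0652).

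Other peptide receptors fell by less. The receptor named Tyrosine-sulfated glycopeptide receptor 1 (Solyc03g123780.4), which in Arabidopsis is linked to PSY peptides, read 13.66, 14.56 and 10.88 FPKM in control and 8.63, 10.47 and 10.01 FPKM in weighted stems. The groups did not overlap, although the highest weighted and the lowest control library lay close together (-0.39, SE 0.13, adjusted p = 0.0232). GSO1 (Solyc01g091230.3), whose Arabidopsis counterpart is needed for the Casparian strip of the root, read 7.94, 13.62 and 6.99 FPKM in control and 6.70, 4.46 and 4.73 FPKM in weighted stems. A single control library, replicate 2, was far above the others (-0.71, SE 0.24, adjusted p = 0.0242). The call for Solyc03g123780.4 ended in the fit over all 12 libraries (adjusted p = 0.166) and without control replicate 1 or 2 or weighted replicate 1 (0.0715, 0.0684 and 0.077), and that for GSO1 without weighted replicate 2 or 3 (0.0699 and 0.0683).

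The HAESA group, which in Arabidopsis controls the shedding of floral organs, was split. The gene named Receptor-like protein kinase 5, another name of HAESA (Solyc12g008500.2), read 1.24, 1.51 and 1.02 FPKM in control and 3.16, 2.58 and 2.25 FPKM in weighted stems. It was higher in all weighted libraries (0.70, SE 0.14, adjusted p = 0.00363). One HSL1 gene (Solyc02g077630.3) read 20.7, 25.19 and 19.95 FPKM in control and 36.64, 28.29 and 31.24 FPKM in weighted stems, again without overlap (0.53, SE 0.13, adjusted p = 0.00813). The other HSL1 gene (Solyc03g006300.3) was lower, at 5.27, 6.37 and 4.99 FPKM in control and 4.20, 4.02 and 4.25 FPKM in weighted stems (-0.34, SE 0.11, adjusted p = 0.0195). The call of Solyc03g006300.3 ended without control replicate 2 (0.0596) or weighted replicate 2 (0.0534), in the fit over all 12 libraries (0.0864), with median ratios or quantiles (0.0513 and 0.0631) and with the replicate number as a block (0.0519).

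THICK TASSEL DWARF1 (Solyc04g081590.4), named after a maize counterpart of CLAVATA1 that restrains meristem size, read 35.91, 40.4 and 29.36 FPKM in control and 52.34, 47.12 and 46.88 FPKM in weighted stems. All weighted libraries were higher (0.47, SE 0.13, adjusted p = 0.0106). RCH1 (Solyc09g061940.3), of the Arabidopsis receptors for root meristem growth factors, was at or under 0.56 FPKM in every library and did not pass the filter. Of the 11 tested genes in this ligand group of the 6 h values 4 were higher and 7 lower, with a median log2 fold change of -0.39.

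Of 4 genes whose names refer to PXY, which in Arabidopsis binds the peptide TDIF and maintains the vascular cambium, the 2 PXL1 genes were higher. The 2 PXC genes, a name that does not by itself make them TDIF receptors, were lower. Solyc09g064520.3 (PXL1) read 4.83, 5.76 and 4.99 FPKM in control and 13.7, 10.98 and 11.66 FPKM in weighted stems. The weighted mean was 2.33 times the control mean, with a wide gap between the groups (1.08, SE 0.12, adjusted p = 0.000511). The other PXL1 gene (Solyc04g050170.4) read 6.92, 8.92 and 6.05 FPKM in control and 15.03, 11.19 and 10.87 FPKM in weighted stems. It too rose in every library (0.69, SE 0.17, adjusted p = 0.00773).

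PXC1 (Solyc09g008860.4), needed in Arabidopsis for secondary wall formation in xylem, was lower. It read 191.1, 263.42 and 196.96 FPKM in control and 123.8, 102.4 and 115.54 FPKM in weighted stems. The lowest control was well above the highest weighted library (-0.91, SE 0.14, adjusted p = 0.00171). PXC2 (Solyc06g048620.3) had a control mean of 3.17 ± 0.177 and a weighted mean of 2.09 ± 0.314 FPKM (SD, n = 3 each), lower by limma (-0.43, adjusted p = 0.00881). The summed level of the lignifying cell markers was lower in the same weighted libraries, and its part in the PXC1 value was not tested.

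The STRUBBELIG receptor family, known in Arabidopsis for tissue shape and cell division planes, and the FEI kinases, known there for cell wall synthesis, also split, with 3 of 6 higher and 3 lower. The pair named FEI2 and FEI1 went opposite ways. FEI2 (Solyc08g074760.3) read 78.13, 79.69 and 79.85 FPKM in control and 106.2, 104.42 and 107.75 FPKM in weighted stems, with very little spread inside either group (0.42, SE 0.07, adjusted p = 0.00238). FEI1 (Solyc03g113450.4) read 17.25, 20.42 and 18.29 FPKM in control and 11.74, 10.14 and 10.13 FPKM in weighted stems, so every weighted library was lower (-0.75, SE 0.11, adjusted p = 0.0012).

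Both STRUBBELIG subgroups held a gene in each direction. One gene named STRUBBELIG-RECEPTOR FAMILY 6 (Solyc02g081070.4) read 46.72, 47.63 and 48.53 FPKM in control and 79.32, 69.98 and 74.5 FPKM in weighted stems, clearly apart (0.63, SE 0.08, adjusted p = 0.000918). Solyc12g055720.2, with the same name, went from 77.5 ± 3.64 to 66.0 ± 2.07 FPKM (SD, n = 3 per group; -0.23, limma adjusted p = 0.0245). Of the family 3 genes, Solyc07g054500.4 rose from 17.2 ± 0.913 to 24 ± 1.35 FPKM (0.46, adjusted p = 0.0036) and Solyc02g078780.3 fell from 38.5 ± 1.16 to 29.8 ± 1.36 FPKM (-0.36, adjusted p = 0.00593). The call for Solyc12g055720.2 ended with median ratios (0.14) and with the replicate block (0.0736), without control replicate 1 or 2 (0.0527 and 0.0852), and on leaving out weighted replicate 1, 2 or 3 (0.0554, 0.0511 and 0.0826).

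Of the genes whose protein names call the kinase inactive, 4 of 5 were lower and 1 was higher. Of all tested genes 51.4% were lower and 48.0% higher. The names were not checked against a sequence. Solyc04g078590.3 fell most, from 8.04, 9.48 and 8.12 FPKM in control to 2.42, 3.19 and 3.03 FPKM in weighted stems. Its groups were far apart (-1.30, SE 0.12, adjusted p = 0.000339). The one that rose was Solyc08g081940.3, from 36.9 ± 4.89 to 48.6 ± 3.72 FPKM (SD, n = 3 per group; 0.39, limma adjusted p = 0.0147), and its call ended without weighted replicate 1 (0.0504). Among the lower genes the call for Solyc03g095490.3 ended in 6 of 18 alternatives, median ratios and the replicate block among them (adjusted p up to 0.0823), and that for Solyc06g051030.3 in 5 of 18, the replicate block among them (up to 0.0858).

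The kinase annotation divides the set into further subsets. Among tested genes with a kinase domain entry but no active site entry 5 were higher and 20 lower, with a median log2 fold change of -0.47, whereas among those with an active site entry 21 were higher and 12 lower, with a median of 0.44. The difference between these 2 subsets was not tested. A missing entry in the annotation does not by itself show that a kinase is inactive.

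The genes with a malectin-type entry held some of the largest changes, with 3 of 6 tested genes higher and 3 lower. Solyc03g005960.3 read 12.25, 10.53 and 10.12 FPKM in control and 4.34, 4.75 and 3.13 FPKM in weighted stems, with a clear gap (-1.25, SE 0.15, adjusted p = 0.000708). Solyc02g071820.4 read 23.59, 9.70 and 21.39 FPKM in control and 37.0, 38.27 and 29.73 FPKM in weighted stems, and control replicate 2 stood low (0.99, SE 0.30, adjusted p = 0.0159). Solyc12g014350.3 read 11.43, 11.34 and 12.64 FPKM in control and 24.7, 22.08 and 22.08 FPKM in weighted stems, without overlap (0.90, SE 0.09, adjusted p = 0.000472).

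Several genes known only by their domains changed as much as the named ones. Solyc04g072037.1, a kinase-domain gene, had the largest increase and read 1.78, 1.80 and 3.70 FPKM in control and 14.54, 7.73 and 7.17 FPKM in weighted stems. Weighted replicate 1 stood above the other weighted libraries, and all were above the controls (1.64, SE 0.30, adjusted p = 0.00285). Solyc07g056410.3, of the same description, rose from 3.14 ± 0.363 to 6.92 ± 0.565 FPKM (SD, n = 3 each; 0.94, limma adjusted p = 0.000712).

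Of the 8 tested genes without a kinase domain entry 3 were higher and 5 lower. The largest decrease of the set was in Solyc08g016210.3, named MSL1-like, at 10.71, 3.73 and 7.57 FPKM in control and 1.17, 2.80 and 1.09 FPKM in weighted stems. The control libraries varied widely, and control replicate 2 lay close to weighted replicate 2 (-1.59, SE 0.36, adjusted p = 0.00594). Solyc06g084420.1 fell from 46.1 ± 7.68 to 21.2 ± 3.90 FPKM (SD, n = 3 per group; -1.09, limma adjusted p = 0.00149). Solyc06g008300.4 rose from 3.16 ± 0.468 to 6.47 ± 0.522 FPKM (0.85, adjusted p = 0.0012), and Solyc01g011040.3 from 87.0 ± 2.0 to 109.3 ± 0.588 FPKM (0.33, adjusted p = 0.00547).

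The gene with the highest level, Solyc06g063370.3, is named for a protein kinase domain but also carries a chlorophyll a-b binding entry, so its values may not be those of a receptor alone. It read 1335.64, 1515.15 and 1183.88 FPKM in control and 715.48, 758.3 and 756.3 FPKM in weighted stems, far apart (-0.85, SE 0.11, adjusted p = 0.000883). Chlorophyll a-b binding genes fell in the same libraries, as given above, and their part in this value was not tested. Digits of this gene had to be regrouped in the damaged 6 h table, so its level depends on that reading. The reading was chosen for small spread within groups and closeness to the authors' log2 ratios. The SE, the gap and the p-value are therefore partly set by it. Without this gene, the summed level of the other 79 genes was 1584.0 to 1760.1 FPKM in control and 1602.8 to 1661.6 FPKM in weighted stems at 6 h, 2 overlapping ranges.

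**Figure D3:**
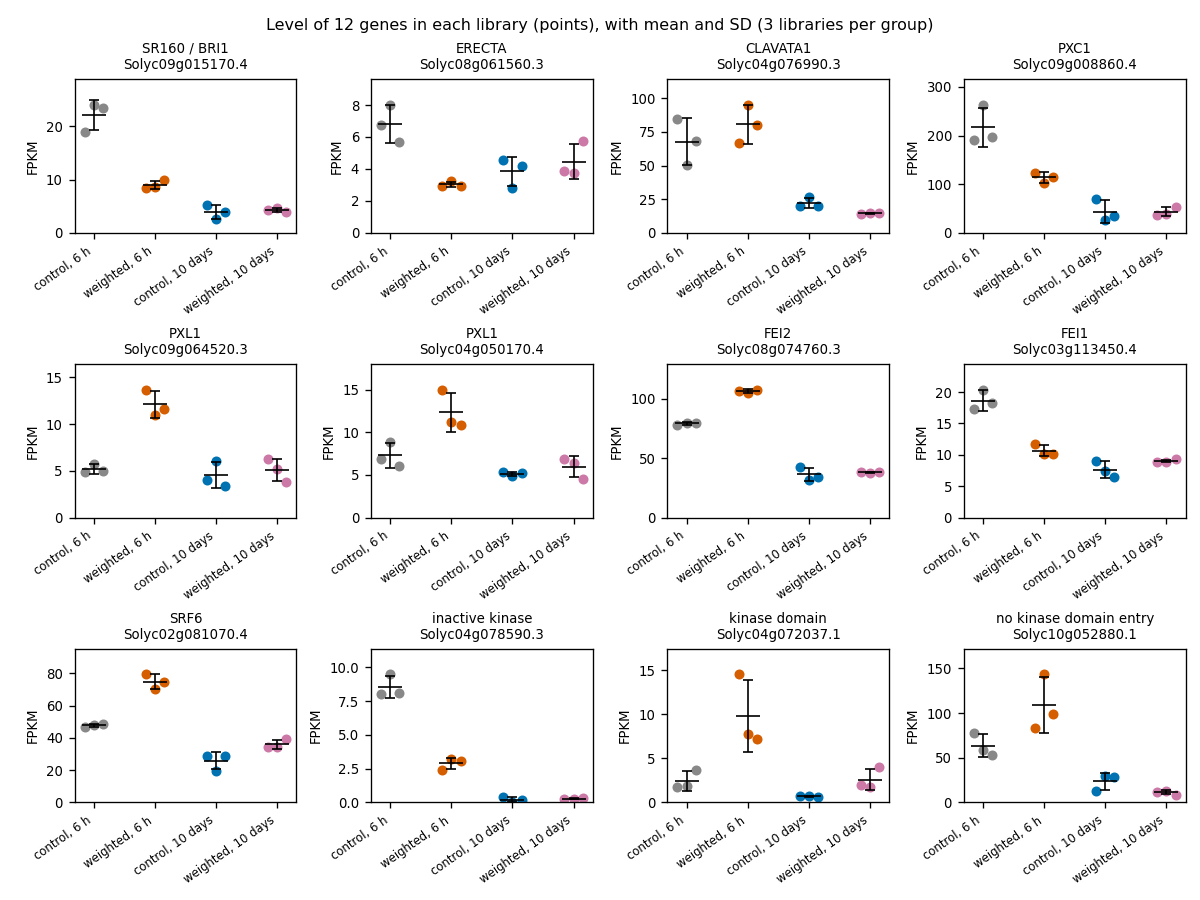
FPKM of 12 genes in each library (points), with the mean and SD of each group (black, 3 libraries per group). Every vertical axis starts at 0 and has its own scale. At 6 h SR160, ERECTA, PXC1, FEI1 and the inactive kinase lie lower in weighted stems and both PXL1 genes, FEI2 and SRF6 (STRUBBELIG-RECEPTOR FAMILY 6) higher; at 10 days the weighted and control points of PXC1, both PXL1 genes and the inactive kinase overlap.

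Genes acting before and after these receptors were read from lists of names. They come from the same 6 h table, where 48.0% of all tested genes were called higher and 51.4% lower. The counts of these short lists were not tested against those shares. All 3 ligand peptide genes in the 6 h table were lower in weighted stems. They included phytosulfokine-beta (Solyc06g074540.4), the precursor of a growth-promoting peptide, which averaged 36.3 ± 3.42 FPKM in control and 23.0 ± 7.15 FPKM in weighted stems (SD, n = 3 each; -0.68, limma adjusted p = 0.0146). An epidermal patterning factor-like gene (Solyc09g082620.3), of the peptide family that binds ERECTA receptors in Arabidopsis, went from 7.26 ± 1.76 to 3.35 ± 0.728 FPKM (-0.91, adjusted p = 0.00467).

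Brassinosteroid synthesis genes were lower in 3 of 4 cases and higher in 1. The reductase DET2 (Solyc10g086500.1) fell from 181.0 ± 45.0 to 99.9 ± 1.65 FPKM (SD, n = 3 per group; -0.82, limma adjusted p = 0.00403), while CYP85A1 (Solyc02g089160.3), a late step, rose from 1.11 ± 0.102 to 2.81 ± 0.179 FPKM (0.86, adjusted p = 0.000685). Of the 4 genes of brassinosteroid signalling below the receptor 3 were higher and 1 lower. Of 9 tested MAP kinase cascade genes 3 were higher and 6 lower. YODA (Solyc02g090430.3), which acts below ERECTA in Arabidopsis stomatal patterning, fell from 28.5 ± 6.52 to 14.5 ± 4.46 FPKM (-0.94, adjusted p = 0.00838), while a YODA-like gene (Solyc03g025360.3) rose from 14.0 ± 0.359 to 17.9 ± 0.289 FPKM (0.34, adjusted p = 0.00695). All 3 ROP exchange factor genes and 3 of 4 tested respiratory burst oxidases were lower, with the fourth oxidase higher. The cytoplasmic kinase PBS1 (Solyc12g098820.2) was higher (0.28, adjusted p = 0.0106).

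At 10 days the set was small. Of its 10 genes among the 10 day values 8 passed the filter, 5 higher and 3 lower in weighted stems, in a table chosen for differing at 10 days, where 99.7% of 1114 tested genes were called, 51.8% higher and 47.9% lower. Of the 8, 4 passed through the group in which they were higher alone: Solyc04g072037.1, Solyc06g006020.3, Solyc06g006024.1 and Solyc08g066310.3. These had to differ once they passed, and the remaining 4 were 2 higher and 2 lower. Another 2, Solyc03g115610.3 and Solyc06g069650.4, did not pass and read at most 0.52 and 1.26 FPKM.

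CLAVATA1 (Solyc04g076990.3), which in Arabidopsis binds the CLV3 peptide and limits the stem cells of the shoot meristem, was lower at 10 days. It read 19.54, 26.25 and 20.18 FPKM in control and 14.05, 14.51 and 14.89 FPKM in weighted stems. The weighted libraries were tightly grouped below all controls (-0.56, SE 0.12, limma adjusted p = 0.00487). At 6 h the same gene read 84.88, 50.39 and 68.44 FPKM in control and 66.46, 95.28 and 79.95 FPKM in weighted stems, with overlap (0.26, SE 0.21, adjusted p = 0.38 over the 10 day table). In that 6 h comparison over the 10 day table, which holds genes chosen at the other time, 1 of 8 receptor kinases was higher and 0 lower, against 13.8% higher and 13.5% lower (27.4% in all) of 1085 tested genes. The 1 was Solyc04g072037.1, whose call ended without control replicate 1 (adjusted p = 0.0566).

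The protein named after Arabidopsis At4g20940 (Solyc02g070000.4), a locus known there as GHR1 for its part in stomatal closure, read 4.25, 2.98 and 3.35 FPKM in control and 5.66, 5.32 and 5.57 FPKM in weighted stems. All weighted libraries were higher (0.54, SE 0.13, adjusted p = 0.00616). A kinase-domain gene, Solyc02g067560.1, read 21.28, 20.05 and 21.89 FPKM in control and 28.69, 27.59 and 28.07 FPKM in weighted stems, with a clear gap (0.40, SE 0.08, adjusted p = 0.00422). Solyc06g006020.3 and Solyc06g006024.1, neighbours in identifier number that may share reads, read 0.347 ± 0.0635 and 0.587 ± 0.0902 FPKM in control and 1.58 ± 0.470 and 1.38 ± 0.0814 FPKM in weighted stems (SD, n = 3 each).

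Library totals over this table weighed on the direction. Its cell type markers were likewise chosen for differing at 10 days. The chlorophyll a-b binding genes (3 of 3) and markers of dividing cells (4 of 4) were lower in weighted stems. The phloem marker (1 of 1) was lower, and those of lignifying cells (1 of 1) and trichomes (2 of 2) were higher. Over the 6 h table, 0 of 28 chlorophyll a-b binding genes and 0 of 12 dividing cell markers were called at 10 days. The part of these shifts in the receptor values was not tested. With library totals equalised, the median of all tested genes moved from 0.35 to 0.62 and none of the 3 lower receptor kinases kept its call, against 5 higher (adjusted p = 0.0735 for CLAVATA1, 0.051 for Solyc08g066310.3 and 0.0587 for Solyc10g052880.1). Leaving out control replicate 2 or control replicate 3 brought the number called lower to 1. Leaving out any one weighted library brought the number called higher to 2, with fewer genes past the filter.

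The 6 h table also gave 10 day values for genes chosen on the 6 h libraries, 372 of which also stood in the 10 day table. Of 64 receptor kinases that passed the filter at 10 days 0 were called, as for the whole table (0.00% of 4747 genes, limma). The call depends on which genes are tested together. Solyc10g052880.1, at -0.95 in both fits, was called lower over the 10 day table, so 0 calls do not show that the weight effect had ended. At an unadjusted p under 0.05 stood 8 that were higher and 2 that were lower, 15.6% of 64, against 16.5% of all tested genes (9.90% higher and 6.64% lower). The point estimates leaned upward, with 49 of 64 above 0 and a median log2 fold change of 0.15, against 55.6% above 0 and a median of 0.04 for all tested genes. A fit over all 12 libraries called 1 receptor kinase higher and 0 lower, where it called 3.10% of all tested genes higher and 1.73% lower.

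SR160 read 5.17, 2.52 and 3.82 FPKM in control and 4.35, 4.59 and 3.90 FPKM in weighted stems at 10 days, which overlapped (0.16, adjusted p = 0.748). PXC1 read 70.1, 26.2 and 33.84 FPKM in control and 37.33, 39.42 and 53.8 FPKM in weighted stems, also overlapping (0.11, adjusted p = 0.901). Some genes stood apart without passing the correction. Groups without overlap were found in 21.9% of 64 tested receptor kinases, near the 23.6% of all 4747 tested genes. Solyc02g081070.4 (STRUBBELIG-RECEPTOR FAMILY 6) read 28.96, 19.56 and 28.48 FPKM in control and 33.99, 34.39 and 39.17 FPKM in weighted stems, higher in 3 of 3 (0.48, adjusted p = 0.247).

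The next comparison set control stems at 10 days against control stems at 6 h. Most receptor kinases were lower in the older stems. Of 68 receptor kinases tested over the 6 h table, 47 were lower and 8 higher at 10 days than at 6 h. That is 69.1% lower and 11.8% higher, where the whole table had 38.5% lower and 27.4% higher (65.9% in all) of 4975 tested genes. The median log2 difference was -0.81, against -0.18 for all tested genes. Of the 68, 4 passed the filter through 1 group alone: ERL1, Solyc04g072037.1 and Solyc04g078590.3 through the 6 h and Solyc12g039080.3 through the 10 day controls. Without them 44 of 64 were lower and 7 higher, with a median of -0.75. The age of the plants and any batch that went with the time of collection cannot be told apart. This comparison shares its 6 h controls with the 6 h weight comparison.

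Scaling by median ratios or quantiles moved the median of all tested genes to -0.02 and -0.01. With median ratios 42 of 68 receptor kinases were lower and 8 of 68 higher, against 33.9% and 33.0% of all 4975 tested genes. With quantiles 36 of 68 were lower and 9 of 68 higher, against 32.9% and 34.5% of all tested genes. Over genes of at least 5 FPKM the number called higher was 4. Within the control stems, 9 of 12 markers of dividing cells were lower at 10 days (summed 1160.5 to 1470.5 FPKM, against 1999.8 to 2305.1 at 6 h) and 5 of 7 tested markers of lignifying cells were higher (173.5 to 191.0 against 65.4 to 96.6 FPKM). The part of these shifts in the receptor values was not tested.

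**Figure D4:**
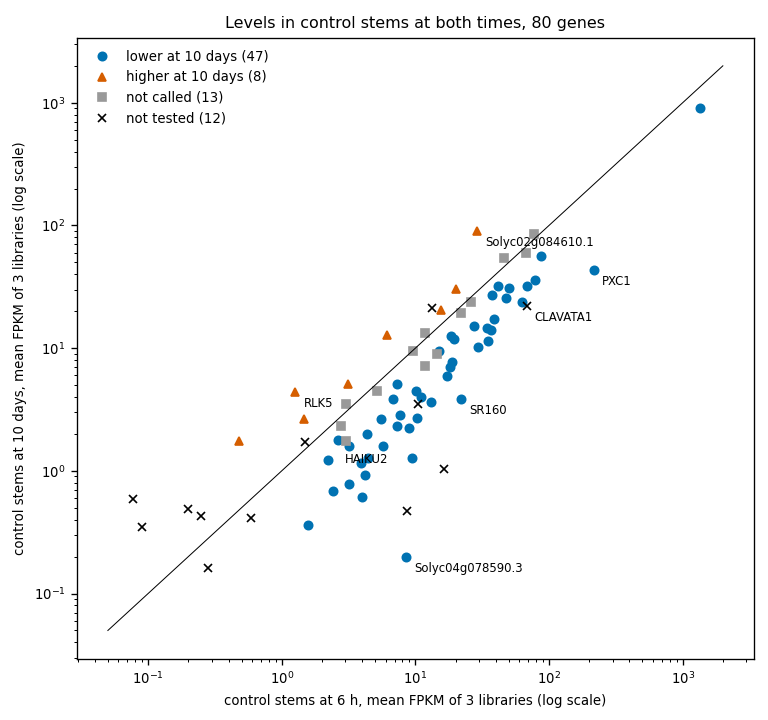
Mean FPKM of each gene in control stems at 10 days against control stems at 6 h (3 libraries each, log axes, line of equal levels). Circles are genes called lower at 10 days (47), triangles called higher (8), squares not called (13) and crosses not tested in this comparison (12). Most points lie below the line. Among the labelled circles Solyc04g078590.3 lies furthest below it, followed by HAIKU2. RLK5 (Receptor-like protein kinase 5) and Solyc02g084610.1 lie above the line.

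By the rule for named genes, the largest decreases with time were in Solyc04g078590.3, PXC1, SR160 and HAIKU2. Solyc04g078590.3, named as inactive, read 8.04, 9.48 and 8.12 FPKM at 6 h and 0.39, 0.04 and 0.16 FPKM at 10 days, where it was close to undetected. Having passed through its 6 h values alone, it is described here without a test. PXC1 fell from 217.2 ± 40.2 to 43.4 ± 23.5 FPKM (SD, n = 3 per group; -2.41, SE 0.35, limma adjusted p = 0.00115), and its 10 day controls varied widely. SR160 fell from 22.1 ± 2.85 to 3.84 ± 1.33 FPKM (-2.29, SE 0.22, adjusted p = 0.000215).

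HAIKU2 (Solyc01g106500.4), known in Arabidopsis for endosperm growth and seed size, read 10.45, 7.01 and 10.67 FPKM at 6 h and 1.34, 1.24 and 1.24 FPKM at 10 days. The groups lay far apart (-2.17, SE 0.17, adjusted p = 0.000103). In the STRUBBELIG and FEI group 5 of 6 genes were lower and the sixth, Solyc12g055720.2, stayed between 74.69 and 89.4 FPKM in all control libraries (0.14, adjusted p = 0.257). All 5 genes named as inactive were lower, but the call for Solyc01g096940.4 ended in 11 of 17 alternatives, among them median ratios, quantiles, no filter and the replicate block (adjusted p up to 0.28), and Solyc04g078590.3 passed the filter through its 6 h values alone. CLAVATA1, which is not in the 6 h table and so was not tested here, read 50.39 to 84.88 FPKM in the 6 h and 19.54 to 26.25 FPKM in the 10 day control stems.

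Among the genes that were higher at 10 days, Solyc02g084610.1 changed most. It read 26.13, 33.25 and 27.87 FPKM at 6 h and 96.97, 86.67 and 87.52 FPKM at 10 days, about 3.11 times the earlier mean (1.61, SE 0.13, adjusted p = 0.000104). Receptor-like protein kinase 5 (Solyc12g008500.2) read 1.24, 1.51 and 1.02 FPKM at 6 h and 5.37, 3.53 and 4.31 FPKM at 10 days, without overlap (1.25, SE 0.17, adjusted p = 0.000725). The gene named after At5g10290 (Solyc03g078520.4) read 19.5, 21.92 and 19.37 FPKM at 6 h and 30.99, 31.35 and 28.78 FPKM at 10 days (0.56, SE 0.11, adjusted p = 0.00405). The malectin-entry gene Solyc02g071860.4 rose from 6.11 ± 0.658 to 12.8 ± 0.626 FPKM (SD, n = 3 each; 0.96, limma adjusted p = 0.000609), and its close neighbour in identifier number, Solyc02g071820.4, fell from 18.2 ± 7.47 to 6.99 ± 2.99 FPKM (-1.26, adjusted p = 0.033). That last call ended with array weights and without control replicate 1 or 3 at 6 h (0.107 and 0.108) or control replicate 2 or 3 at 10 days (0.0722 and 0.0604).

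At 6 h Solyc02g084610.1 was lower in weighted stems, at 23.82, 21.23 and 19.33 FPKM (-0.42, SE 0.12, adjusted p = 0.0136). At 10 days it read 109.27, 114.96 and 118.05 FPKM in weighted stems, above all 3 controls (0.33, adjusted p = 0.183 over the 6 h table).

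Of the receptor kinases 2 stood in both tables, and for them the weight effects at the 2 times could be compared in one model, where 36.8% of 372 genes were called, 22.6% with a positive and 14.2% with a negative difference. Solyc10g052880.1, named as a plant-type serine-threonine protein kinase without a kinase domain entry, read 77.66, 59.07 and 52.96 FPKM in control and 82.95, 143.46 and 99.46 FPKM in weighted stems at 6 h. At 10 days it read 12.52, 30.05 and 28.14 FPKM in control and 12.02, 12.82 and 8.49 FPKM in weighted stems, with control replicate 1 as low as the weighted libraries. It was thus higher with weight at 6 h (0.75, SE 0.22, adjusted p = 0.0136) and lower at 10 days (-0.95, SE 0.31, adjusted p = 0.0172).

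The difference between these 2 effects was -1.70 on the log2 scale (limma interaction, adjusted p = 0.00599). All 372 genes of this model had been chosen for differing at both times in these same libraries. For a gene with opposite effects this p-value is therefore no independent support. For Solyc10g052880.1 the 10 day call ended without control replicate 2 or 3 (0.0524 and 0.0561) and likewise without weighted replicate 3 (0.0565), and the 6 h value over the 10 day table had adjusted p = 0.0507. Solyc04g072037.1 was higher with weight at 6 h, as given above. At 10 days it read 0.70, 0.75 and 0.60 FPKM in control and 1.99, 1.77 and 3.99 FPKM in weighted stems, without overlap, and since it passed the filter there through the weighted libraries alone, its 10 day test is no support. The difference between its 2 effects was -0.60 (interaction adjusted p = 0.344).

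Shares of the receptor kinases can be set beside those of the 2 nearest classes of gene. Of 148 tested protein kinases without leucine-rich repeat text 41.2% were higher and 58.1% lower, against 43.3% and 55.2% of the receptor kinases. Of 50 tested leucine-rich repeat genes without kinase text 58.0% were higher and 42.0% lower. With age in control stems, 49.0% of 149 kinases and 39.2% of 51 repeat genes were lower, against 69.1% of the receptor kinases. These shares are descriptions, and the differences between the classes were not tested.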

How the data were processed

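RNA from tomato stems was sequenced in 12 libraries, 3 for each of 4 groups, which were assigned by the sample titles. Reads were aligned with HISAT and Bowtie2, per the labels' protocols; their versions, the genome build, the annotation and the counting of multiply mapping reads were not given in the sources used here. Near-identical genes may share reads, which makes their values uncertain.

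The authors deposited FPKM values in 2 tables, each with all 12 libraries. In the authors' deposited table of 6 h, Q values were under 0.05 for 1813 of 1813 genes with a legible value, and in that of 10 days for 908 of 909, so the genes had been selected for differing at that time. The 6 h table had its column and decimal marks exchanged, which were restored. For 89 of its 5346 genes the digits were regrouped by the smallest spread within groups and the authors' log2 ratios, and 4 genes could not be read and were left out. Of the receptor kinases, Solyc06g063370.3 was regrouped. A decimal zero may be missing in 16 of 840 receptor kinase values and would shift each by at most 0.017 (log2). Fold changes from the restored values correlated with the authors' deposited log2 ratios at 0.9994 (Pearson, 5321 genes, 6 h) and 0.9997 (1145 genes, 10 days). The depth cannot be read from FPKM, so there are no counting intervals. The planned count-based test needs counts and was not run.

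Values were tested as log2(FPKM + 1) with limma 3.58.1 (R 4.3.3; a two-sided moderated test with a trended prior) over all genes of a table with 1 FPKM or more in 3 or more of the compared libraries, and p-values were adjusted by Benjamini-Hochberg over all of them. A fold change on this scale understates the change of low genes. A gene with adjusted p under 0.05 was called. An exact permutation test of 3 against 3 libraries cannot go below 0.1 and was not used. The fits were tested on simulated data. Python 3.11.15 with pandas 2.3.3, numpy 2.4.6 and matplotlib 3.10.9 made summaries and figures.

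The receptor kinases, the gene lists, the tests and the groups by role were chosen with earlier results of these data known. The rule for named genes took the 8 largest and 8 smallest changes at 6 h, and 4 and 4 in every other comparison, among called genes whose groups did not overlap and whose higher group averaged 5 FPKM or more. It added genes named for a known receptor, genes in both tables and the 5 highest levels. PXC2, Solyc08g081940.3, Solyc08g066310.3, Solyc06g006020.3, Solyc06g006024.1, Solyc03g082450.3, Solyc03g115610.3, Solyc06g069650.4, Solyc03g095490.3, Solyc06g051030.3, Solyc01g096940.4, Solyc12g039080.3, the pathway genes and, in the closing section, Solyc07g065860.3, Solyc02g068820.3, Solyc03g083510.4, Solyc08g080830.3 and Solyc10g085670.2 fall outside the rule and were named after their values were seen. None of the 80 identifiers matched the reference gene table, so 0 positions and sequences are given. Alternatives were other pseudocounts (0.1 and 0.5), filters (none and 5 FPKM), scalings (library totals, median ratios and quantiles), model settings, the replicate number as a block, and leaving out each library. The 6 h comparison over the 10 day table was added after the data were seen.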

Additional observations from a re-analysis of the deposited data

Results flagged for a closer look

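The weight effect of Solyc10g052880.1 differed between the times: it was 0.75 at 6 h and -0.95 at 10 days on the log2 scale, a difference of -1.70 (limma interaction over 372 genes, adjusted p = 0.00599, 0.000358 to 0.0191 over its alternatives). Since the 372 genes had been chosen for differing at both times, these p-values are no independent support. Another 6 receptor kinases had all weighted libraries on one side of the controls at 6 h and on the other side at 10 days, 9.52% of the 63 tested at both times, against 8.85% of all 4668 genes of the 6 h table tested at both. For these the difference between the times was not tested, and none was called at 10 days over the 6 h table. The ratio of the weighted to the control mean was 1.72 at 6 h and 0.772 at 10 days for Solyc02g068820.3 (named after At3g47570). It was 0.78 and 1.35 for Solyc02g071860.4, which has a malectin-type entry, and 0.738 and 1.26 for Solyc02g084610.1, which has no kinase domain entry. It was 0.634 and 1.75 for Solyc03g083510.4 (named after At1g34110), 0.867 and 1.15 for Solyc08g080830.3, and 0.665 and 1.38 for Solyc10g085670.2 (named after At5g49770). Groups of 3 libraries are too small to look for single outlying samples.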

How the results depend on the processing

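At 6 h 46 of 66 called receptor kinases passed under every alternative that tested them, 20 lost the call under at least 1 and 0 changed direction. With age, 40 of 55 passed under every alternative and 15 lost the call, among them Solyc07g065860.3, whose difference also turned to 0.11 with quantiles. At 10 days 5 of 8 passed, but Solyc04g072037.1, Solyc06g006020.3 and Solyc06g006024.1 among them had passed the filter through the weighted libraries alone. For these genes the kept call is no support. Counts moved by over 1.5 times in these cases, whose cause was not tested unless given. At 10 days 5 were lower without the filter, which adds genes, 0 were lower with library totals equalised, and 2 were higher over genes of 5 FPKM or more, which leaves fewer genes. Over the 6 h table the 10 day fit in all 12 libraries called 1 higher. Over the 10 day table the 6 h fit, with 1 higher and 0 lower, called 2 higher over genes of 5 FPKM or more, 4 with library totals equalised, 2 with quantiles, and 1 lower with array weights, whose estimation did not fully converge in some fits. With age 4 were higher over genes of 5 FPKM or more. The interaction called 2 with array weights and 0 by InterPro text alone, which leaves out Solyc10g052880.1. Leaving out each library in turn gave 24 to 29 higher and 28 to 34 lower at 6 h, 2 to 5 higher and 1 to 3 lower at 10 days, 0 to 1 higher and 0 to 1 lower at 6 h over the 10 day table, 6 to 8 higher and 37 to 45 lower with age, and 0 and 1 for the interaction. The interaction's median over all tested genes moved from 0.06 to -0.20 with library totals equalised.

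The labels share replicate numbers across groups without saying what a number stands for. Deviations of same-numbered libraries correlated at -0.365, -0.29 and -0.04 at 6 h and at -0.156, 0.317 and 0.168 at 10 days, so the numbers were not taken to pair the samples. With the replicate number as a block 28 were higher and 29 lower at 6 h, 5 and 3 at 10 days, 0 and 0 at 10 days over the 6 h table, 1 and 0 at 6 h over the 10 day table, 7 and 43 with age, and 0 and 1 in the interaction.

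Depth is unknown, so low values such as those of RCH1 cannot be given a limit, and selection of the deposited genes limits what the 6 h and 10 day counts show.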
